A study of Homo sapiens with 2 samples.

Results

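HMMR, DLGAP5, FAM83D, PBK, ASPM, ANLN, PRC1, ECT2, CEP55 and NUSAP1 are 10 genes of the mitotic spindle and of cytokinesis, followed here through SUB1 knockdown in PC3 cells. They were selected because several of them had some of the lowest measured ratios on these same arrays, so their ratios are given as a description without a test. The set was every gene probe that the array files assigned to any of these genes by its current symbol or an older alias. This gave 13 of 41000 probes, 12 of which passed the filter on dim spots, and all 10 genes were among the 19218 genes kept. The files named 9 of the genes by their current symbol, while DLGAP5 was listed under its older name DLG7.

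PC3 is an established, metastasis-derived prostate cancer cell line. Cells were transfected with Non-T (non-targeting) siRNA or with SUB1 siRNA 1 or SUB1 siRNA 2, using Lipofectamine RNAiMAX and a repeat transfection a day later, and RNA was collected 72 h after the first transfection. Each SUB1 siRNA was compared with Non-T siRNA on 1 dual-colour Agilent whole-genome array, with Non-T RNA in the Cy3 channel and SUB1 siRNA RNA in the Cy5 channel. Both arrays lay on the same slide, and whether they carried the same Non-T extract is not stated. No array was repeated and no dyes were swapped, so dye bias and the loss of SUB1 cannot be told apart, and nothing measured here gives the spread between cultures. In bulk RNA, fewer cells in mitosis and less RNA per cell cannot be told apart either.

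The spindle is the microtubule machine that separates the chromosomes, and cytokinesis is the pinching and cutting that then divides the cell. Spindle poles and bundled fibres are built first, a midzone of overlapping microtubules then marks the cell equator, RhoA activated there assembles a ring of actin and myosin, and the remaining bridge is cut at the midbody by ESCRT proteins. Most genes dedicated to these steps are transcribed in the G2 and M phases of the cell cycle. The promoters of many such genes carry a cell cycle genes homology region (CHR), bound by the DREAM and MuvB complexes, and CCAAT boxes, bound by NF-Y. SUB1, also called PC4, is a transcriptional coactivator, and the arrays ask which transcripts change when it is reduced.

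The knockdown itself was checked first. The brightest SUB1 probe read 8467 in Cy3 and 1073 in Cy5 on the SUB1 siRNA 1 array (hereafter the first array). On the SUB1 siRNA 2 array, the second array, it read 6300 and 820. After normalization the log2 ratio of Cy5 over Cy3 was -3.30 with SUB1 siRNA 1 and -3.26 with SUB1 siRNA 2, and all 4 SUB1 probes were lower on both arrays (-3.75 to -1.81 and -3.50 to -1.57). Across all genes, limma called 1 gene (0.0052% of 19218) on the mean of both arrays at an adjusted p below 0.05, and this was SUB1 (adjusted p = 0.0248), whereas 4013 genes (20.9%) had an unadjusted p below 0.05. SUB1 passed in 7 of 13 fits with other settings included. The epithelial markers KRT8, KRT18 and EPCAM were detected, at Cy3 signals of 2515, 10046 and 862 on the SUB1 siRNA 1 array. The probes of KLK3, the gene of prostate-specific antigen, disagreed, at 18634 for the brightest and 105 for the other probe kept. Of 6 markers of other cell types, PTPRC and COL3A1 did not pass the filter. The other 4 passed, with Cy3 signals on the SUB1 siRNA 1 array of 384 (CD68), 164 (COL1A1), 148 (PECAM1) and 128 (CD3E). The epithelial marker CDH1 read 141 there. No marker of either kind that passed the filter changed 2-fold on either array.

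The promoters are shown for 6 of the genes, in which the CHR letters fall at different distances from the start sites. A link between these letters and the ratios was not tested. Each line runs 5′ to 3′ in the direction of the gene, from 120 bases before to 30 bases after the annotated start, with sequence and coordinates from RefSeq on GRCh38.p14. Capitals mark CHR letters and CCAAT boxes. A CHR match was TTTGAA on either strand, which is read as TTCAAA when it lies on the opposite strand, or the rarer variant spelled TTCGAA that is the same on both strands. A CCAAT box on the opposite strand is read as ATTGG in these lines.
HMMR, chr5:163460512-163460661, plus strand: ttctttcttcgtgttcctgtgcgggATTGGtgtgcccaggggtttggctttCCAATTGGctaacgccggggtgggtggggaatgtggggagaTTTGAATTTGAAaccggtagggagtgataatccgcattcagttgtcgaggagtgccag
CEP55, chr10:93496492-93496641, plus strand: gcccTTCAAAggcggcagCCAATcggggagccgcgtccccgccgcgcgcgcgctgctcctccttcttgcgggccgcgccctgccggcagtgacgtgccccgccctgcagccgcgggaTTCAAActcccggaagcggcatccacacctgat
DLGAP5, chr14:55191556-55191705, minus strand: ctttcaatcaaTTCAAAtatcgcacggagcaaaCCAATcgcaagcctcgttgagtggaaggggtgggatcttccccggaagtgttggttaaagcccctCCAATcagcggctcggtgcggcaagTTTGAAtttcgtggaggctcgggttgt
ASPM, chr1:197146640-197146789, minus strand: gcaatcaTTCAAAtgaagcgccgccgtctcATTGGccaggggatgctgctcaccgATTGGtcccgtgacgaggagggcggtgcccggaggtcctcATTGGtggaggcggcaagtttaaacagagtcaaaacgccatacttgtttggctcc
PRC1, chr15:90994506-90994655, minus strand: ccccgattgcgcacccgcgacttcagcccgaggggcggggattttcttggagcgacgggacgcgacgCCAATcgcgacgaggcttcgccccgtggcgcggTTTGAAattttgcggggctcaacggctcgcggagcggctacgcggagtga
ANLN, chr7:36389742-36389891, plus strand: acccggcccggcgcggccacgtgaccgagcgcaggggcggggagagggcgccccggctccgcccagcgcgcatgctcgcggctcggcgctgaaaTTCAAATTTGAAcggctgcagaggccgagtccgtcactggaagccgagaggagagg

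The search itself covered 250 bases before to 50 bases after each start on both strands, for 8 of the 10 genes. FAM83D had no promoter in the set of sequences used, and PBK was left out of the search by choice. HMMR, the hyaluronan-mediated motility receptor that also sits on spindle microtubules, had 2 CHR matches in direct succession at -28 to -23 and -22 to -17. ANLN had a pair that ran into each other as an inverted repeat, at -26 to -21 and -20 to -15, and it was the gene of the 8 without a CCAAT box. PRC1 had 1 match at -20 to -15. In CEP55 a match spanned the start itself (-3 to 3), in DLGAP5 it followed the start (4 to 9), and the same held for NUSAP1 (14 to 19) and ECT2 (35 to 40). The single match of ASPM, at -113 to -108, lay further from the start than the nearest match of any of the other 7 genes, taking the first start of ECT2. DLGAP5, CEP55 and ECT2 also had matches further upstream.

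A CHR match was found in 8 of these 8 genes, in 19.5% of 27305 genes with a promoter in the table and in 15.7% of the 10512 genes that also passed the array filter. PBK and FAM83D are not among the 8, so the share over all 10 genes is not known. CCAAT boxes occurred in 7 of the 8 genes, in 39.7% of all genes and in 43.5% of those that passed the array filter. In HMMR the forward box at -69 to -65 overlapped the reverse box at -66 to -62. An E2F-like element, searched on both strands with the letters GCGGGAA, was present in 1 of the 8, CEP55 at -185 to -179, in 7.82% of all genes and in 12.5% of those that passed the array filter. Counted by promoter, since some genes have several, 16.4% of 35116 promoters held a CHR match, 34.6% a CCAAT box and 6.55% an E2F-like element. These matches are descriptions of letters and not evidence of binding.

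**Figure D1:**
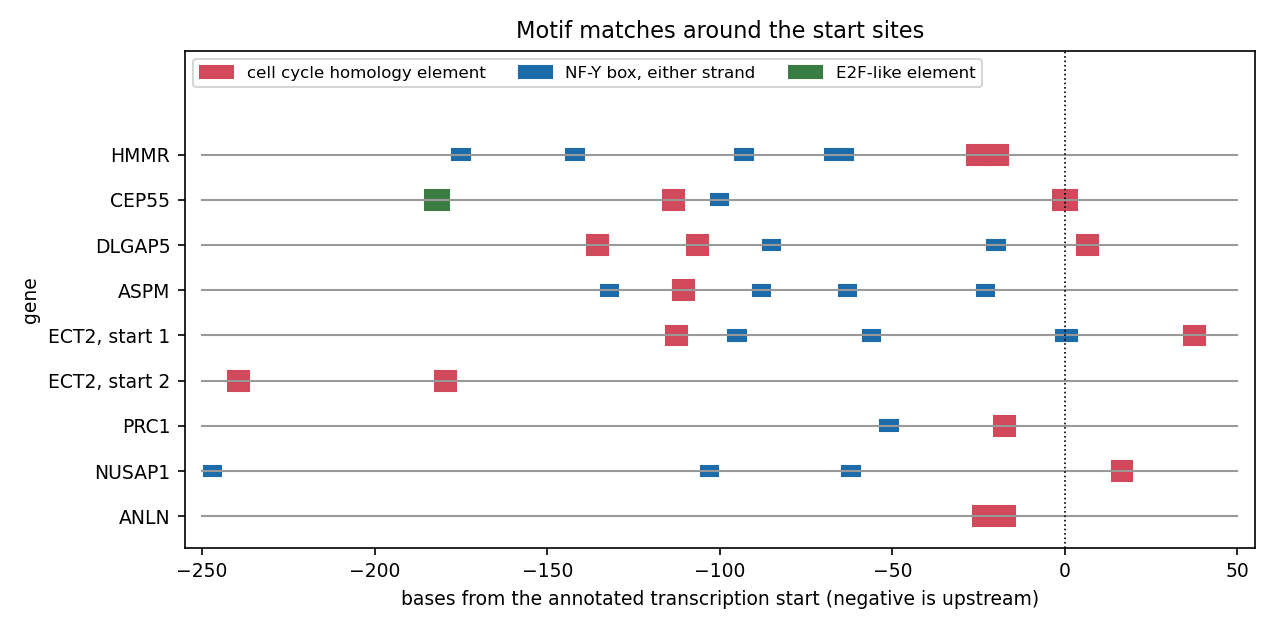
Positions of motif matches around the annotated start sites of 8 of the genes, in bases from the start (horizontal axis), with 1 line per start site and 2 for ECT2. Red blocks are CHR elements, blue blocks are CCAAT boxes (NF-Y boxes) on either strand and the green block is the E2F-like element of CEP55. A red block lies on every line, and no blue block lies on the ANLN line or on that of the second ECT2 start.

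The spindle builders HMMR, DLGAP5 and FAM83D were at least 2-fold lower with both siRNAs. HMMR gave a mean spot signal of 2062 with Non-T siRNA and 948 with SUB1 siRNA on the first array, and 1692 and 637 on the second. Its log2 ratios were -1.40 and -1.69, or 2.64-fold and 3.23-fold lower. HMMR was therefore lower on both arrays and the lowest of the set with SUB1 siRNA 1. Its only probe lies at chr5:162851415-162851474 on the plus strand in hg18, the build of the array files. For all coordinates of probes, no annotation of that build was used, so exons and introns were not assigned.

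DLGAP5, also known as HURP, bundles the microtubules that attach to kinetochores. Its signal was 1487 with Non-T siRNA and 741 with SUB1 siRNA 1, and 1341 with Non-T siRNA and 595 with SUB1 siRNA 2. The log2 ratios of -1.27 and -1.44 made it 2.42-fold and 2.71-fold lower. Both arrays thus gave nearly the same value for its probe at chr14:54684866-54684925 on the minus strand. FAM83D brings casein kinase 1 alpha to the spindle together with HMMR. Its signal was 580 against 258 on the first array and 537 against 241 on the second. Its log2 ratios of -1.38 and -1.35 (2.61-fold and 2.55-fold lower) were the closest pair of the set, and FAM83D was the only one of the 10 genes that was not lower with SUB1 siRNA 2 than with SUB1 siRNA 1. Its probe lies at chr20:37014740-37014799 on the plus strand.

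PBK, also called TOPK, is a serine and threonine kinase active in mitosis. It read 1261 with Non-T siRNA and 587 with SUB1 siRNA 1, and 1060 with Non-T siRNA and 373 with SUB1 siRNA 2. The log2 ratios were -1.36 and -1.77, or 2.57-fold and 3.41-fold lower. With SUB1 siRNA 2 it was the lowest of the set and ranked 12 of 19218 genes. By the mean of both arrays, PBK and HMMR ranked 3 and 4, after SUB1 and the mitotic kinase PLK1.

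ASPM gathers microtubule minus ends at the spindle poles and is the gene most often mutated in primary microcephaly. Its brighter probe, at chr1:195320077-195320136 on the minus strand, read 693 against 444 with SUB1 siRNA 1 and 650 against 289 with SUB1 siRNA 2. The log2 ratios were -0.87 and -1.41, so it passed 2-fold with SUB1 siRNA 2 only. The second probe, 59.7 kb away at chr1:195379747-195379806, gave -0.69 and -0.93 and did not pass on either array. Both probes were lower on both arrays, and both were lower with SUB1 siRNA 2. NUSAP1 stabilizes and bundles microtubules near the chromosomes. It read 379 against 248 on the first array and 367 against 204 on the second, for log2 ratios of -0.73 and -1.01. This was the value nearest to the 2-fold limit with SUB1 siRNA 2, just inside it, from 1 probe at chr15:39455237-39455296 on the plus strand. NUSAP1 missed the limit without background correction (-0.97), with median spot signals (-0.93), with the authors' log2 ratios (-0.93) and after median centring (-0.87).

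The genes of the midzone and ring, PRC1, ECT2 and ANLN, did not reach 2-fold with SUB1 siRNA 1 and passed it with SUB1 siRNA 2. After median centring in place of loess, all 3 missed 2-fold with SUB1 siRNA 2 (PRC1 -0.89, ECT2 -0.90 and ANLN -0.96). PRC1 crosslinks antiparallel microtubules of the midzone and recruits the kinesin KIF4A there. Its signal was 1671 against 1127 on the first array and 1443 against 805 on the second. The log2 ratios were -0.84 and -1.12, at chr15:89310430-89310489 on the minus strand. ANLN, or anillin, is the scaffold that ties actin, myosin and septins together in the ring. It read 432 against 315 with SUB1 siRNA 1 and 367 against 187 with SUB1 siRNA 2, at chr7:36459112-36459171 on the plus strand. Its log2 ratio of -0.63 was the least negative of the set with SUB1 siRNA 1, and the ratio with SUB1 siRNA 2 was -1.10.

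ECT2 is the exchange factor that activates RhoA at the equator. It had the highest signal of the set and 3 probes on the plus strand of chromosome 3 that disagreed in size. The brightest, at chr3:174021821-174021880, read 5264 against 3753 and 4240 against 2360, with log2 ratios of -0.82 and -1.18. The second, 0.797 kb upstream, read 396 against 314 and 309 against 218, with ratios of -0.46 and -0.63. The third, 18.7 kb upstream, read 113 and 76 on the first array, where it was not well above background in either channel, and gave -0.22 and -0.33. All 3 probes had negative ratios on both arrays, and the size of the decrease depended on the probe, with the dimmer probes closer to 0. As the mean over the kept probes, the ratio with SUB1 siRNA 2 was -0.90.

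CEP55 is the midbody scaffold that recruits the ESCRT machinery for the final cut. It read 1975 with Non-T siRNA and 1066 with SUB1 siRNA 1, and 1833 with Non-T siRNA and 675 with SUB1 siRNA 2. The log2 ratios were -1.17 and -1.72, or 2.26-fold and 3.30-fold lower, from 1 probe at chr10:95278744-95278803 on the plus strand. Among the genes past 2-fold with SUB1 siRNA 1 it was the nearest to the limit, which it missed after median centring (-0.94), and ASPM at -0.87 was the nearest outside it.

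**Figure D2:**
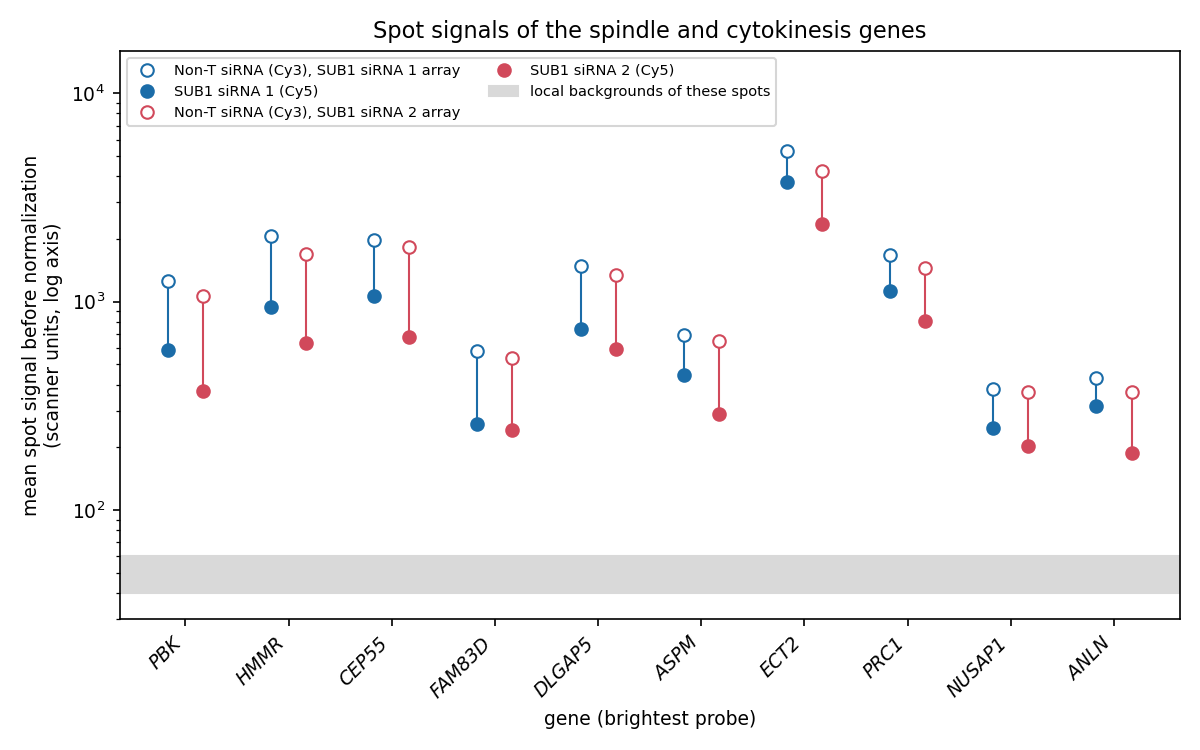
Mean spot signals before normalization on a log axis for the brightest probe of each of the 10 genes, ordered by their mean log2 ratio. Open circles are Non-T siRNA (Cy3), filled circles are SUB1 siRNA (Cy5), blue is the SUB1 siRNA 1 array, red is the SUB1 siRNA 2 array, each circle is 1 spot, and the grey band spans the local backgrounds of these spots (40 to 60). Every filled circle lies below its open circle and above the band.

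Every member spot of a brightest probe thus stood well above its local background of 40 to 60, with Cy5 signals from 187 to 3753. Across the set, 5 of 10 genes were at least 2-fold lower with SUB1 siRNA 1, where 0.609% of all genes were. With SUB1 siRNA 2 this held for 10 of 10 genes, where 1.07% of all genes were that low, and with both siRNAs for 5 of 10, against 0.14% of all genes. No member was 2-fold higher, where 0.208% of all genes were with SUB1 siRNA 1 and 0.614% with SUB1 siRNA 2. With median centring in place of loess, 56 and 101 of all 19218 genes were 2-fold lower with SUB1 siRNA 1 and SUB1 siRNA 2. Of the 10 genes, 4 and 6 were then that low. Since the genes were chosen on these ratios, nothing is read from these shares. The median log2 ratio of the 10 genes was -1.02 with SUB1 siRNA 1 (SD over genes 0.30) and -1.38 with SUB1 siRNA 2 (SD 0.28), beside 0.02 for all genes on each array.

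The error available is technical. The 209 kept probes that were printed 10 times on each array had a median SD among their spots of 0.078 on the first array and 0.074 on the second, in log2 units. Near the intensities of the 10 genes, this SD was 0.065 to 0.082 and 0.067 to 0.075. All member ratios lay further from 0 than this spread, which covers neither culture nor labelling. Each member probe was a single spot.

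**Figure D3:**
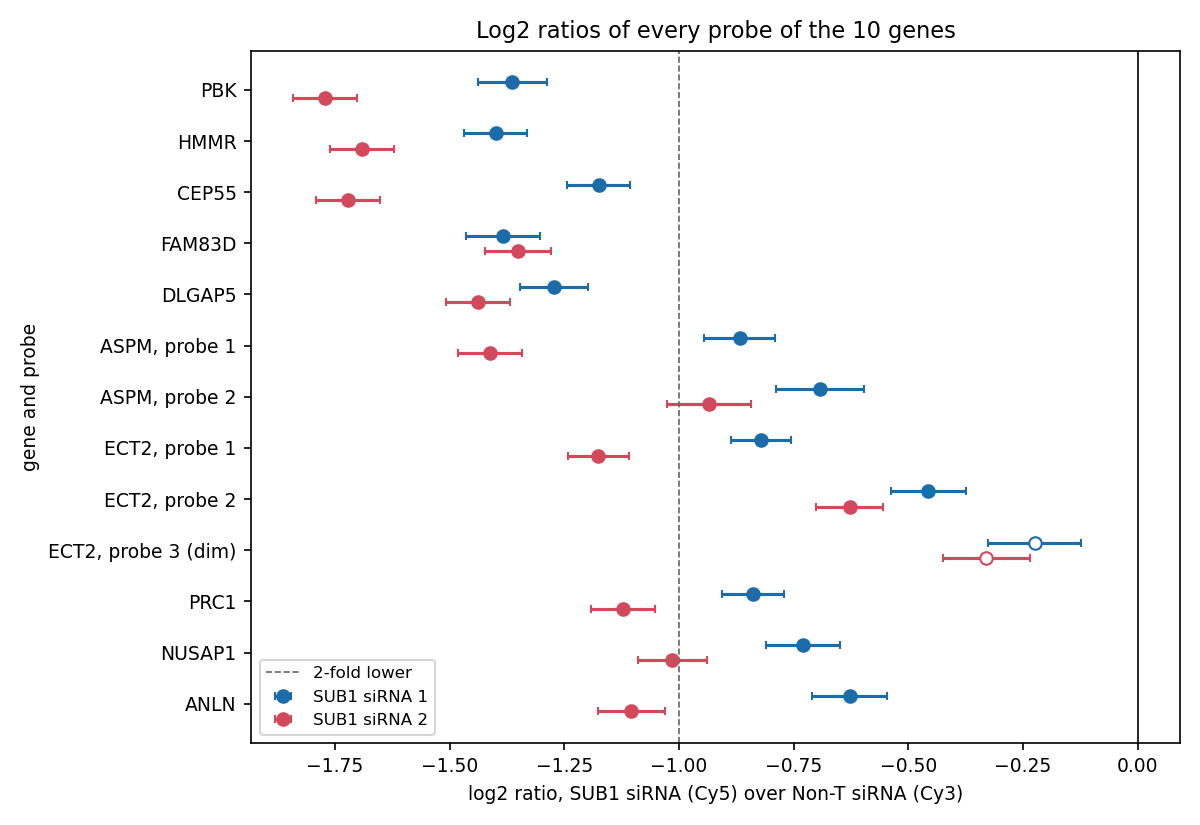
Log2 ratios of SUB1 siRNA (Cy5) over Non-T siRNA (Cy3) for all 13 probes of the 10 genes, 1 spot each. Bars are the median SD among repeated spots of 10-fold printed probes of like intensity, open symbols mark the ECT2 probe that did not pass the filter, and the dashed line is 2-fold lower. Probes of ASPM and ECT2 spread more among themselves than the bars, and all 13 probes lie left of 0.

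The log2 ratio was lower with SUB1 siRNA 2 than with SUB1 siRNA 1 for 9 of 10 genes, with a median difference of -0.32, while 50.4% of all genes were lower with SUB1 siRNA 2. The further G2/M spindle and cytokinesis genes also had lower ratios with SUB1 siRNA 2, in 26 of 33 genes with a median difference of -0.22. For 8 of the 10 genes the difference between the arrays was beyond 2 technical SDs, the exceptions being FAM83D (0.03) and DLGAP5 (-0.17), and the same held for 35.3% of all genes. This SD covers spots only, whereas the arrays also differ in their cultures. It was widest for CEP55 (-0.55), ASPM (-0.54) and ANLN (-0.48), so that the order of the genes changed between siRNAs. Scaled to a common level across arrays, the Cy3 signal of the 10 genes differed by a median of 0.04 in log2 between the arrays and the Cy5 signal by -0.39, beside medians of -0.00044 and -0.00074 for all genes. The Cy5 difference was the larger of the 2 channels for 9 of 10 genes and for 70.7% of all genes, and NUSAP1 was the exception, with 0.18 in Cy3 and -0.11 in Cy5. SUB1 itself was no lower with SUB1 siRNA 2 (-3.26) than with SUB1 siRNA 1 (-3.30). With 1 array for each siRNA, a difference between siRNAs and a difference between arrays or cultures cannot be told apart.

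**Figure D4:**
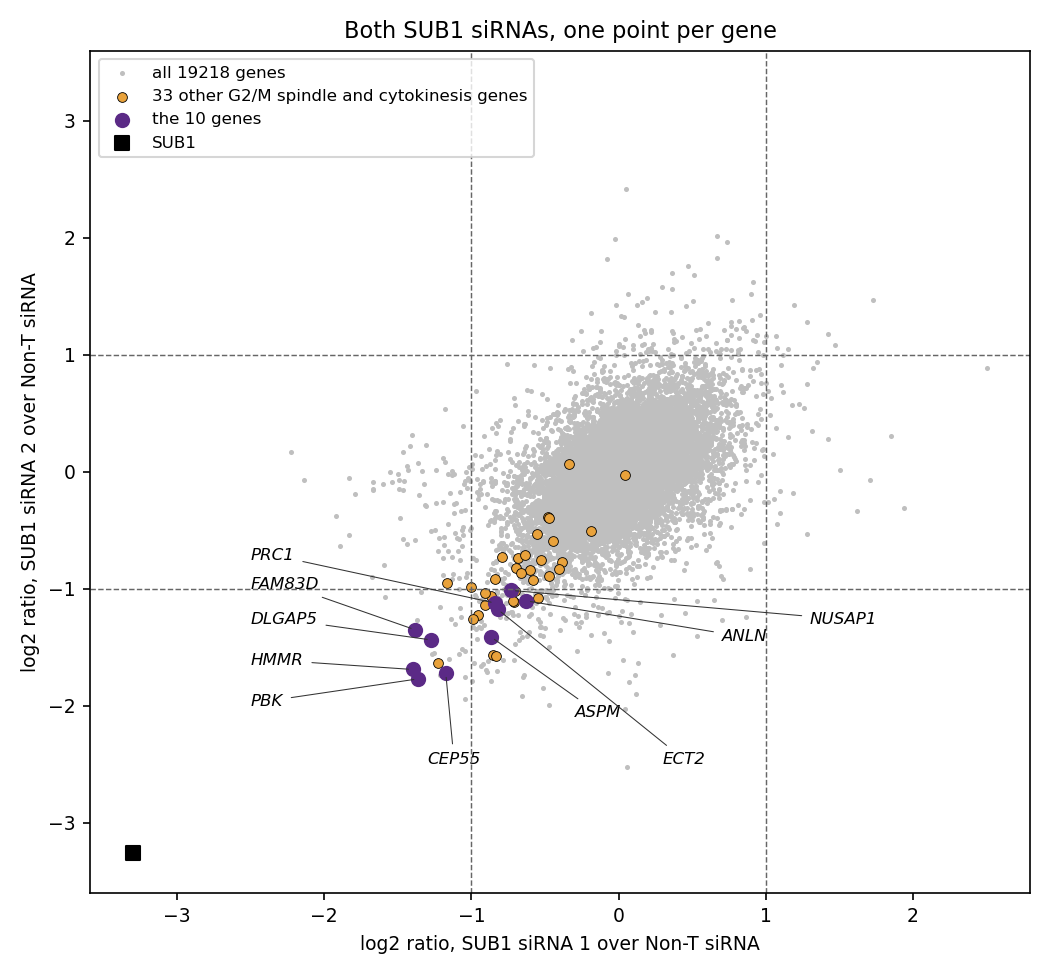
Log2 ratio with SUB1 siRNA 1 (horizontal) against SUB1 siRNA 2 (vertical) for 19218 genes in grey, 33 further G2/M spindle and cytokinesis genes in orange, the 10 genes in purple and SUB1 as a black square. Dashed lines mark 2-fold changes. All 10 genes lie below the lower horizontal line, and 5 of them also lie left of the left vertical line.

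Other genes of the same machinery were described through lists of genes that were not members. Of 34 further G2/M spindle and cytokinesis genes, 33 were kept, and 32 of these had a ratio below 0 on each array. Among all 19218 genes, 8821 were below 0 with SUB1 siRNA 1 and 8915 with SUB1 siRNA 2. The medians of the 33 genes were -0.68 and -0.89. Of these genes, 3 were at least 2-fold lower with SUB1 siRNA 1 and 12 with SUB1 siRNA 2, beside 0.609% and 1.07% of all genes. None was 2-fold higher. The count with SUB1 siRNA 2 was 4 after median centring and 24 in the scanner software's processed signals. Over all genes it was 205 after loess, 101 after median centring and 471 in the processed signals. KIF23, the kinesin subunit of centralspindlin, was lowest in the list (-1.22 and -1.64), followed by the midbody kinase CIT (-0.86 and -1.57) and the chromosomal passenger subunit CDCA8, also called borealin (-0.83 and -1.58). At the other end stood KIF20B (0.04 and -0.03), CKAP2 (-0.33 and 0.06) and KIFC1 (-0.19 and -0.50). These 3 genes did not reach 2-fold on either array. In limma 31 of the 33 genes had an unadjusted p below 0.05, beside 20.9% of all genes, and 0 passed the adjusted p of 0.05. The list was chosen with earlier results of these data known, so nothing is read from these counts.

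Beside the lists that follow, the median over all genes was 0.02 on each array after loess, and 0.13 and 0.12 after median centring. The 27 kept genes of spindle poles and microtubule nucleation had medians of -0.17 and -0.22 after loess and of -0.07 and -0.07 after median centring, and none reached 2-fold after loess. Their lowest were TUBG1, or gamma-tubulin (-0.51 and -0.65), DYNC1H1, the dynein heavy chain (-0.39 and -0.58), and HAUS7, an augmin subunit (-0.51 and -0.35), and their highest was CLASP1 (0.38 and 0.14). The 22 genes of the contractile ring and septins had medians of -0.05 and -0.28 after loess and of 0.20 and 0.02 after median centring, and none reached 2-fold after loess. ARHGAP1 (-0.43 and -0.80), SEPTIN7 (-0.35 and -0.84) and the formin DIAPH1 (-0.44 and -0.60) were lowest, and SEPTIN6 (0.18 and 0.34) and ROCK2 (0.40 and 0.08) were highest.

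The 20 ESCRT and abscission genes had medians of 0.09 and 0.13 after loess and of 0.30 and 0.38 after median centring. CHMP4B, CHMP2B and VPS4B, which form and recycle the cutting filament, had ratios of 0.44 and 0.45, 0.47 and 0.25, and 0.32 and 0.34. A single ESCRT gene reached 2-fold, TSG101 with SUB1 siRNA 2, where 1.07% of all genes were at least 2-fold lower. The 10 reference genes had medians of -0.15 and -0.10 after loess and of 0.12 and 0.28 after median centring. Over all genes the medians also rose, from 0.02 on each array to 0.13 and 0.12. GAPDH was at 0.01 and -0.07, whereas the ACTB probes disagreed, at 0.75 and 0.37 for the brightest and -0.09 and -0.35 for the next. By mean ratio, RPLP0 (-0.44 and -0.55), SDHA (-0.38 and -0.42) and HPRT1 (-0.38 and -0.33) were the lowest reference genes. ACTB, B2M (0.13 and 0.78) and TBP (0.11 and 0.16) were the highest. In limma 0 genes of these lists passed an adjusted p of 0.05, and 10 of the 27 spindle pole genes, 8 of the 22 ring genes, 3 of the 20 ESCRT genes and 4 of the 10 reference genes had an unadjusted p below 0.05, beside 20.9% of all genes. Nothing is read from these counts either, since the lists were chosen with earlier results of these data known.

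**Figure D5:**
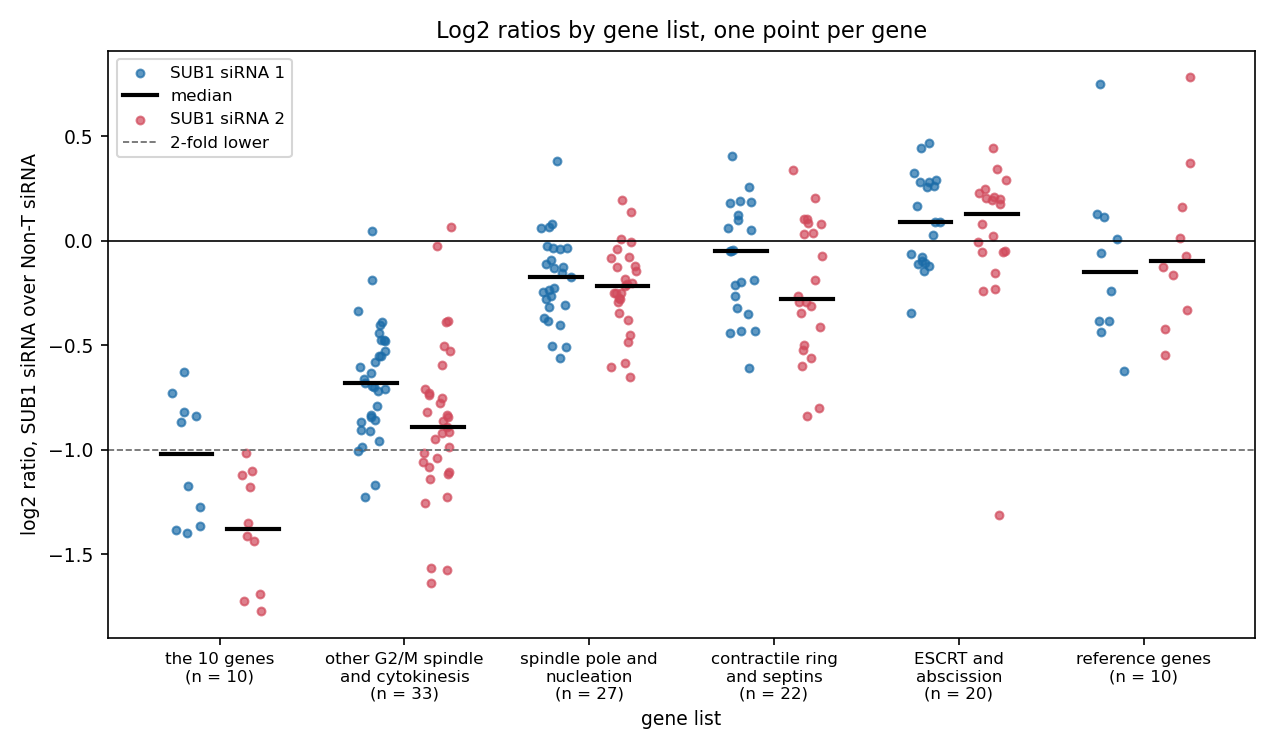
Log2 ratios of SUB1 siRNA over Non-T siRNA by gene list, with 1 point per gene (brightest probe), blue for SUB1 siRNA 1, red for SUB1 siRNA 2, black bars for medians and a dashed line at 2-fold lower. The medians run from -1.02 and -1.38 for the 10 genes through -0.68 and -0.89 for the other G2/M genes to 0.09 and 0.13 for ESCRT and abscission, and the low red ESCRT point is TSG101.

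Direct partners of the 10 proteins varied. Of 19 partners, 2 were at least 2-fold lower with SUB1 siRNA 1 and 6 with SUB1 siRNA 2, beside 0.609% and 1.07% of all genes. The partners had medians of -0.32 and -0.47. Outside the G2/M list, 13 partners had medians of -0.21 and -0.12. PLK1, the mitotic kinase that binds CEP55 and PRC1, was lowest (-1.41 and -1.72). TPX2, which holds HMMR and AURKA on the spindle, was at -0.96 and -1.23, and AURKA at -0.70 and -1.02. The 2 centralspindlin subunits that bind ECT2, KIF23 and RACGAP1, differed, RACGAP1 being at -0.60 and -0.84.

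Other partners of ECT2, FAM83D, ASPM and CEP55 were as follows. RHOA, the GTPase that ECT2 activates, was at 0.06 and -0.31. CSNK1A1, the kinase that FAM83D recruits, was at -0.02 and 0.03, and KATNA1, a microtubule-severing enzyme that works with ASPM, was at -0.32 and -0.12. Of the 2 proteins through which CEP55 recruits ESCRT, PDCD6IP, also called ALIX, was at -0.06 and -0.06, and TSG101 was at 0.28 with SUB1 siRNA 1 and at -1.31 with SUB1 siRNA 2. In limma 11 of the 19 partners had an unadjusted p below 0.05, beside 20.9% of all genes, and 0 passed the adjusted p of 0.05. The partners, too, were chosen with earlier results of these data known, so nothing is read from these counts.

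CHR letters were also counted in these lists. They occurred in 20 of 29 further G2/M genes (69%), 7 of 26 spindle pole genes, 1 of 21 ring and septin genes, 1 of 15 ESCRT genes and 0 of 8 reference genes, in the 300-base windows described above. Over all genes with a promoter the share was 19.5%, and over those that also passed the array filter it was 15.7%. No test was made of these shares. Nothing is read from them, since the lists were chosen with earlier results of these data known.

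Outside the set, the 5 genes whose ratios on both arrays lay closest to the medians of the 10 genes were the histone genes H4C2 and H4C3, the replication licensing factor CDT1, the ubiquitin-conjugating enzyme UBE2C and the checkpoint kinase BUB1B. Closeness was the straight-line distance in the plane of both log2 ratios, over 2 arrays, and ranged from 0.060 for H4C2 (-0.99 and -1.33) to 0.096 for BUB1B (-0.94 and -1.34). Histone H4 genes encode the same protein from near-identical sequences, so their probes may read several copies.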

How the data were processed

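The authors hybridised both dual-colour arrays, scanned them and quantified the spots with Agilent Feature Extraction 9.5.1.1 (per the file headers). The deposited scanner files hold intensity values for each spot and its local background in both channels. A deposited table holds the authors' log2 ratios, for which the study's methods name loess on each array, and its rows followed the log2 ratios computed here (Pearson r across all gene spots 0.924 and 0.942). The scanner software's own ratios and p-values were not used.

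The analysis used R 4.3.3 with limma 3.58.1. Background was removed from mean signals by normexp (offset 50), after which control spots were dropped and each array was normalized by loess with a span of 0.3. Spots flagged as outliers (112 and 100) did not enter, and repeated spots were averaged by probe. The filter required, on each array, a well above background flag in at least 1 channel for a share of 0.5 of a probe's spots (25673 of 41000 probes). Each gene was read from its brightest kept probe, and 13128 of 19218 genes were named through RefSeq. The offset pulls ratios of dim probes towards 0. A change meant a log2 ratio of at least 1 in size, the 2-fold rule of the study's methods, without a test. limma also tested the mean of both arrays against 0 over all genes (Benjamini-Hochberg), which leaves out the spread of the control. The fit was tested on simulated data. The number of arrays limits the precision. The members and lists were chosen with earlier results of these data known. Named genes were SUB1, ACTB, GAPDH, all members, partners and the 5 nearest genes. From each list the 3 lowest and 3 highest genes by mean ratio were picked, and some of these are not named. Alternatives changed the background correction, offset, normalization, signal, filter, flagged spots and probe choice. Scaling across arrays by Aquantile served channel differences only. Some genes of the lists are not reported here by name.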

Additional observations from a re-analysis of the deposited data

Results flagged for a closer look

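TSG101 stood at 0.28 with SUB1 siRNA 1 and at -1.31 with SUB1 siRNA 2, a difference of -1.59. Its single probe read 1540 in Cy3 and 2276 in Cy5 on the first array, and 1461 and 712 on the second. Smaller opposite values with the 2 siRNAs, each beyond 2 technical SDs among spots, were found for the lysosomal and macrophage marker CD68 (0.87 between siRNAs), for the keratin KRT18 (-0.43) and for FAM83H, a relative of FAM83D (0.39). These are examples and not a full list. SEPTIN11 (0.18 and -0.29) and MYL12A (-0.20 and 0.21) also had opposite values. For 35.3% of all genes the difference between the arrays was beyond 2 technical SDs. The median of the epithelial and prostate markers was 0.20 with SUB1 siRNA 1 and -0.12 with SUB1 siRNA 2, a difference of -0.31. None of these differences was tested, since there was 1 array for each siRNA.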

How the results depend on the processing

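Under 11 alternatives all 220 values of the 10 genes stayed below 0, 208 kept their side of the 2-fold limit, 11 dropped below it and 1 passed it (NUSAP1 with SUB1 siRNA 1 in the Feature Extraction processed signals, -1.07). Many of the 220 values were the same as in the main processing. Keeping flagged spots, dropping the filter or requiring both channels above background changed no member value. For the 8 genes with 1 probe, the choice of probe could not change the value either. Under median centring the median over all genes was 0.13 and 0.12, with 6 of 10 genes 2-fold lower with SUB1 siRNA 2 and members' medians of -0.81 and -1.20. The further G2/M list then had medians of -0.57 and -0.77, with 4 genes 2-fold lower with SUB1 siRNA 2. With a normexp offset of 16, the members' median with SUB1 siRNA 2 was -1.49, and the G2/M list had medians of -0.81 and -1.03 and 20 genes lower with SUB1 siRNA 2. The Feature Extraction processed signals gave members' medians of -1.12 and -1.54, and for the G2/M list medians of -0.89 and -1.28 with 12 and 24 genes lower. Over all genes, those 2-fold lower with SUB1 siRNA 2 also moved, from 205 in the main processing to 101 after median centring. They numbered 267 with the offset of 16 and 471 in the processed signals. With SUB1 siRNA 1 they moved from 117 to 297 in the processed signals. The members' median with SUB1 siRNA 2 was -1.26 as the mean over all kept probes and -1.24 with the second-brightest probe. The cause of these shifts was not tested. SUB1 passed the adjusted p in limma in 7 of 13 fits and 0 genes passed under no background correction, median spot signals, the authors' log2 ratios, processed signals, median centring or a robust prior with a trend (3528 to 5707 genes at an unadjusted p below 0.05). Of 110 medians of the other lists, 92 moved by less than the technical SD and 18 by more.

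No paired analysis was possible because each siRNA had 1 array, and leaving out either array leaves no residual degrees of freedom. Both arrays share a slide, so a slide block could not be fitted. Signal over background limits the third ECT2 probe most.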

Other observations

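Of 12 paralogues of DLGAP5, FAM83D and ECT2, 11 had a probe and 3 passed the filter on dim spots. DLGAP3 was at 0.15 and 0.03, DLGAP4 at 0.09 and -0.00, and FAM83H at -0.16 and 0.23. The only DLGAP3 probe read 19249 and 14982 in Cy3, above every member, while DLGAP1 and DLGAP2 did not pass the filter. Which transcript the DLGAP3 probe reads was not checked. The only paralogue of ECT2 on the list, ECT2L, did not pass the filter. Since the 10 genes were chosen on their ratios, nothing is read from setting them beside these paralogues.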
